A study of Mus musculus with 10 samples.

Results

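Keratins are the intermediate filament proteins of epithelial cells. A type I (acidic) keratin pairs with a type II (basic) keratin, the pairs assemble into filaments, and desmosomes anchor those filaments at cell borders. Which pair a cell makes follows its kind: Krt8 with Krt18 marks simple and luminal epithelium, Krt5 with Krt14 marks basal cells, and the hard keratins build hair. In the mouse prostate Krt8 and Krt18 label luminal cells, Krt5 and Krt14 label basal cells, and Krt4, Krt7 and Krt19 are used as markers of luminal cells near the urethra. The family was taken as each array row annotated to exactly 1 gene symbol that begins with Krt followed by a digit, which gave 48 genes out of 30142 measured genes. Krt90, annotated under an older symbol of another form, falls outside that rule and entered no count (4.06 to 4.55 over all arrays, under the background limit given below). Of these, 28 are type I and 20 are type II.

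RNA from luminal epithelial cells of male mouse prostate was measured on whole-transcript microarrays (Affymetrix ClariomD, MTA-1.0), 1 array per sample, as log2 RMA intensities. All mice carried Hoxb13-rtTA and TetO-H2BGFP, so that doxycycline, given to every group in drinking water at 2 mg/ml for 1 week, switched on a nuclear green fluorescent protein where the prostate lineage gene Hoxb13 is active. Intact mice (n = 3) were untreated, castrated mice (n = 3) lost their testes at 12 weeks of age and were left for 6 weeks of regression, and regenerated mice (n = 4) then carried testosterone implants for 4 weeks. Cells were sorted on the fluorescence, on CD24 and on intermediate CD49f, and against antigens of blood cells, per the design text. No group was castrated for the longer time without testosterone, so time since castration and testosterone cannot be told apart. No age of the intact mice was read from the labels, so a difference in age cannot be told apart from castration. The labels leave unsaid how many mice went into each array. The sample titles call the arrays of each group biological replicates. The p-values reflect how far these arrays differ from each other, and the technical part of that was not tested.

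Genes tied to the sort also differed between groups, Hoxb13 (castrated lower than intact, limma adjusted p = 0.00416) and Cd24a (castrated higher, limma adjusted p = 0.00358). Hoxb13 was 10.39 ± 0.17 (SD, n = 3) in intact, 7.74 ± 0.20 (n = 3) in castrated and 9.47 ± 0.86 (n = 4) in regenerated arrays, and Cd24a was 14.31 ± 0.26, 16.03 ± 0.09 and 15.33 ± 0.47. Whether the gate took the same cells in each group was not tested, and in sorted bulk RNA a different share of cells and a different amount of RNA per cell cannot be told apart. On the first principal component of all genes, with 44.3% of the variance, regenerated replicate 4 lay at 3.03, apart from the other regenerated arrays at -31.0 to -23.2. Values without it are given where it changes the call of a keratin or a count of desmosome genes.

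Markers of other cell types were read beside the keratins. Of 4 leukocyte markers, Ptprc (CD45) and Adgre1, both antigens of the sort, had means from 3.60 to 3.81, near background. Itgam (CD11b), also at background level, was 3.91 ± 0.07 in intact, 4.29 ± 0.12 in castrated and 4.01 ± 0.05 in regenerated arrays, higher in castrated than intact arrays (limma adjusted p = 0.0181) and below every castrated array after testosterone without passing (0.0657). The T cell gene Cd3e was 7.05 ± 1.46, 10.45 ± 1.91 and 6.40 ± 0.74, just short of the threshold in castrated against intact arrays (limma adjusted p = 0.0507) and lower in regenerated than castrated arrays (0.0253). The summed level of the leukocyte list was set by Cd3e and ran from 6.44 to 8.37, 8.46 to 11.78 and 6.58 to 7.70. Of 6 stromal markers, the collagens Col1a1, Col1a2 and Col3a1 and the muscle genes Acta2 and Myh11 lay at background, and Dcn, decorin, was 12.23 ± 0.73, 7.53 ± 1.35 and 11.37 ± 0.46, which set the list's sum (11.44 to 12.78, 7.53 to 9.30 and 11.003 to 11.925). All 3 endothelial, 2 neuroendocrine and 3 skin markers had means under the background limit, and of these 8 the skin desmoglein Dsg1a was called, higher in castrated than intact (3.83 ± 0.04 to 4.42 ± 0.18, limma adjusted p = 0.0132) and lower in regenerated arrays (3.82 ± 0.18, 0.0117). The part of these genes' source cells in the keratin values was not tested. Of 6 prostate luminal markers all had a group mean above the limit. Beside Hoxb13 and Cd24a, the surface peptidase gene Dpp4 was higher in castrated arrays (5.94 ± 0.41 to 9.03 ± 0.07, limma adjusted p = 0.0027) and 7.70 ± 0.93 in regenerated arrays. The luminal transcription factor Foxa1 was 12.99 ± 0.24, 11.78 ± 0.73 and 12.41 ± 0.32, with every castrated array under every intact array but no call (limma adjusted p = 0.0668). Epcam and Cdh1, epithelial adhesion proteins, were 14.01 ± 0.10, 14.60 ± 0.09 and 14.07 ± 0.20, and 15.81 ± 0.19, 16.18 ± 0.34 and 15.21 ± 0.49, and did not pass. The list's summed level was 16.61 to 16.76 in intact, 17.28 to 17.58 in castrated and 16.60 to 16.82 in regenerated arrays. The castrated arrays thus stood above the others, but the sum was set mostly by Cdh1 and Cd24a. Hoxb13 and Foxa1, whose castrated means were lower than intact, weighed little in it.

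Most of the family lay at background level. Background was judged by 23 control rows of the array, whose highest value in any array was 6.40, in castrated replicate 3 (4.66 to 5.58 in the others). Of the 48 keratins, 41 had all 3 group means at or under that value, and 34 also lay under the 95th percentile of the background values, 4.76. The 7 keratins with a group mean above the limit were Krt8, Krt18, Krt23, Krt19, Krt4, Krt7 and Krt15. The group means of all 12 hard hair and nail keratins and all 9 keratins of the hair follicle's inner root sheath and companion layer lay at or under the limit. So did those of all 11 keratins of epidermis, cornea, mouth and other stratified epithelia, and of Krt5, Krt14, Krt17, Krt20, Krt13 and Krt16. Single arrays could lie higher, as for Krt80 below. At these levels a change can be compressed, and a level set by background cannot be told from a low level of transcript.

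**Figure D1:**
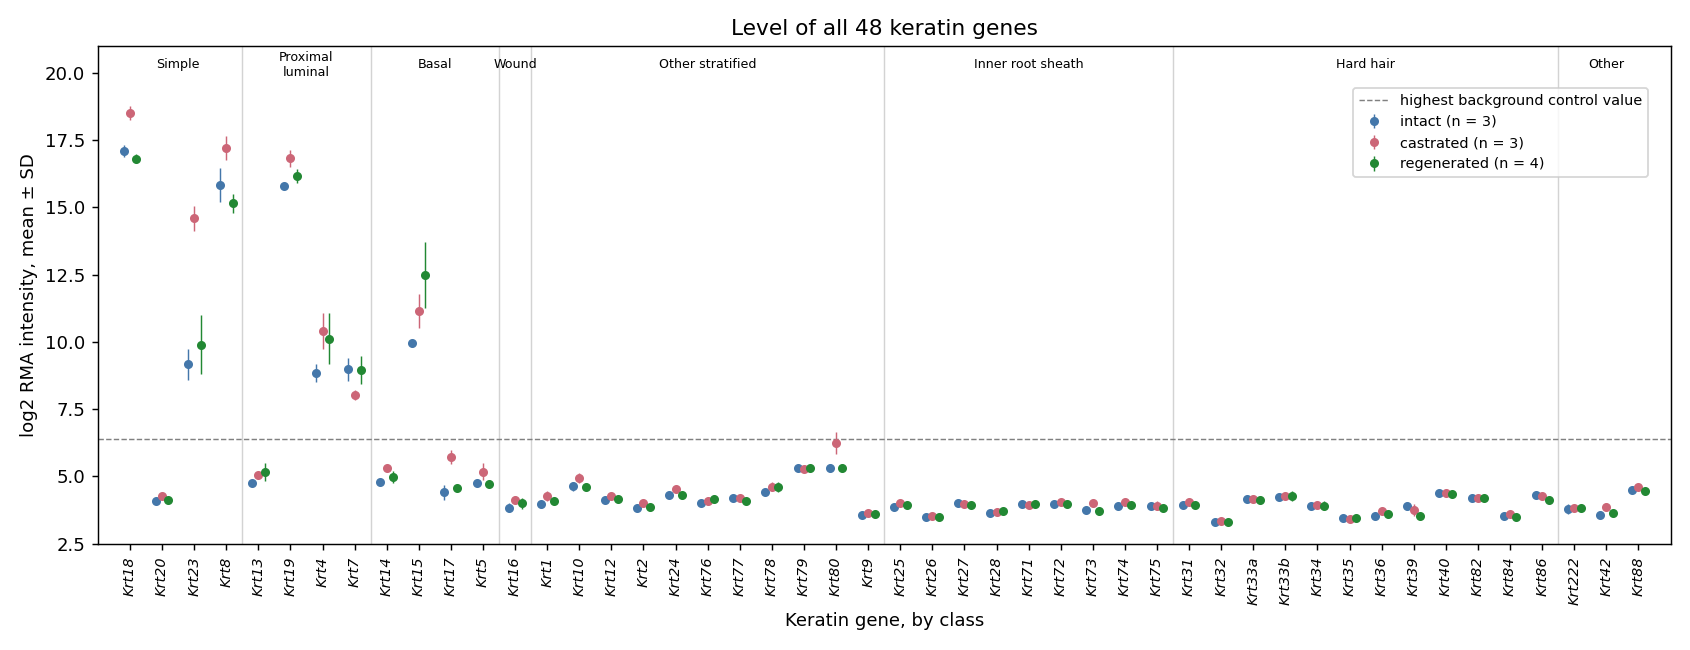
Group means (points) with SD (bars) of log2 RMA intensity for all 48 keratin genes, ordered by class, in intact (n = 3), castrated (n = 3) and regenerated (n = 4) arrays. The dashed line is the highest background control value, 6.40. Only the 7 genes named in the text have a group mean above it.

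The first comparison asks which keratins differed after 6 weeks without testicular androgen. In castrated arrays 8 of the 48 keratins were higher and none was lower: Krt23, Krt18, Krt8, Krt19, Krt17, Krt80, Krt14 and Krt73 (limma, Benjamini-Hochberg adjusted p under 0.05 over all 30142 genes). That is 16.7% of the keratins, against 8.01% of all genes called either way, 4.82% called higher and 3.19% called lower. With each array centred on its median, the split over all genes was 1085 higher and 1185 lower, against 1452 higher and 962 lower as deposited, and the keratins called were 5 higher and none lower. The median change of the 48 keratins was 0.13 log2, against 0.04 for all genes. Groups of arrays did not overlap for 23 keratins, 22 higher and 1 lower (Krt7), where 28.9% of all genes did not overlap (17.4% higher and 11.5% lower). The count of 8 fell to 3 without intact replicate 1, to 4 without intact replicate 2, and to 5 without intact replicate 3 or castrated replicate 1. Calls over all genes also fell, from 2414 to 1019, 1200, 2033 and 1884 in these fits, in the order named.

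The second comparison asks how the keratins stood after testosterone was given back. In regenerated arrays 6 of the 48 were lower than in castrated arrays and none was higher: Krt23, Krt18, Krt8, Krt17, Krt80 and Krt73. That is 12.5%, against 4.98% of all genes called either way, 3.01% called lower and 1.97% called higher. The median change of the keratins was -0.10 log2 and that of all genes -0.01. Groups did not overlap for 15 lower keratins and 1 higher, Krt7, where 16.0% of all genes did not overlap (9.51% lower and 6.53% higher). Leaving out 1 array gave counts from 4 to 7 either way, with Krt7 as higher among those called without regenerated replicate 4. Calls over all genes ran from 816 to 2127 in these fits, against 1500 in the main fit. All 6 had been higher in castrated than in intact arrays, and both comparisons use the same castrated arrays, so their values are given side by side and the reversal is not counted as separate evidence.

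The third comparison asks whether keratins of regenerated prostates differed from those never castrated. No keratin passed limma's test in either direction (0.0365% of all genes passed, 0.0332% higher and 0.00332% lower), and 5 had an unadjusted p under 0.05; every other limma setting tried also called none. The smallest of these p-values belonged to Krt15, described below. Groups of arrays did not overlap for 6 keratins, 3 higher and 3 lower, where 9.65% of all genes did not overlap (6.42% higher and 3.23% lower).

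**Figure D2:**
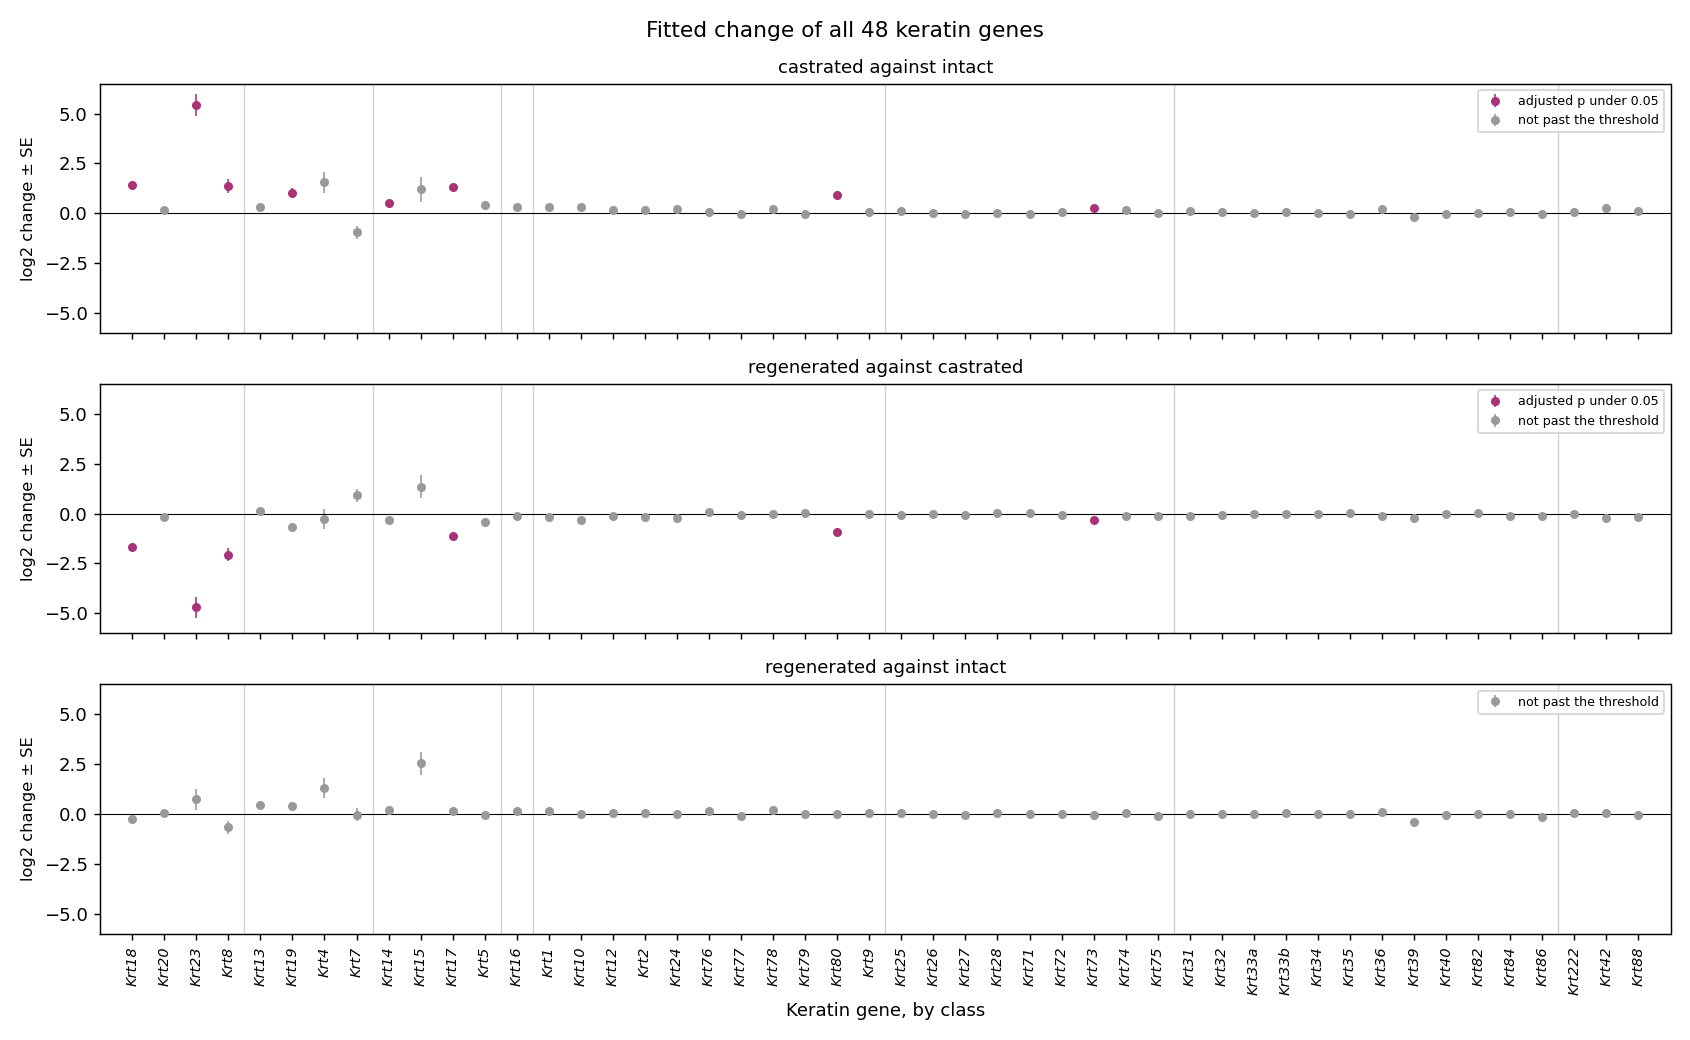
Fitted log2 change (points) with its standard error (bars) for all 48 keratin genes in the 3 comparisons, from limma over all 10 arrays. Coloured points passed an adjusted p of 0.05: 8 higher in castrated than intact arrays, 6 lower in regenerated than castrated arrays, and none in regenerated against intact arrays.

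Among the simple keratins, Krt23, a type I keratin of glandular and gut epithelium, changed most in this family. Its values were 9.54, 9.44 and 8.51 in intact, 14.98, 14.72 and 14.09 in castrated, and 8.44, 10.90, 9.70 and 10.54 in regenerated arrays. Every castrated array lay above every other array, and the intact and regenerated groups overlapped. The rise with castration was 5.43 ± 0.57 log2 (SE, limma adjusted p = 0.000458) and the fall with testosterone was -4.70 ± 0.54 (limma adjusted p = 0.000929). The regenerated mean was 0.73 ± 0.54 above intact (limma adjusted p = 0.746). Both calls held in all 19 alternatives run for this gene, with rises from 5.11 to 5.68.

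Krt18, the type I partner of Krt8 and a standard luminal marker, was 17.16, 17.26 and 16.86 in intact, 18.65, 18.65 and 18.21 in castrated, and 16.67, 17.01, 16.90 and 16.66 in regenerated arrays. It rose by 1.41 ± 0.18 log2 with castration (limma adjusted p = 0.00119) and fell by 1.69 ± 0.16 in regenerated arrays (limma adjusted p = 0.00039). Castrated arrays lay above all others, and both calls held in all 19 alternatives. The highest value in the table is 19.93, so a level this high may be compressed.

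Krt8, the type II partner of Krt18, was 16.25, 16.13 and 15.10 in intact, 17.41, 17.52 and 16.68 in castrated, and 15.10, 15.61, 15.16 and 14.73 in regenerated arrays. The rise with castration, 1.37 ± 0.35 log2 (limma adjusted p = 0.0364), was the less certain of its changes: it ended without any one of the 3 intact arrays, castrated replicate 1 or 2, or regenerated replicate 3 (adjusted p from 0.0544 to 0.126), with each array centred on its median (0.0643), with quantile normalization (0.182) and in a fit of the 2 groups alone (0.0538). Intact replicate 3 was about 1 log2 under the other intact arrays. The fall in regenerated arrays, -2.05 ± 0.32 (limma adjusted p = 0.00517), held in all 19 alternatives. Krt20, another simple keratin, known from gut and from umbrella cells of the bladder, was at background, with means of 4.08, 4.26 and 4.11, and passed in no comparison.

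**Figure D3:**
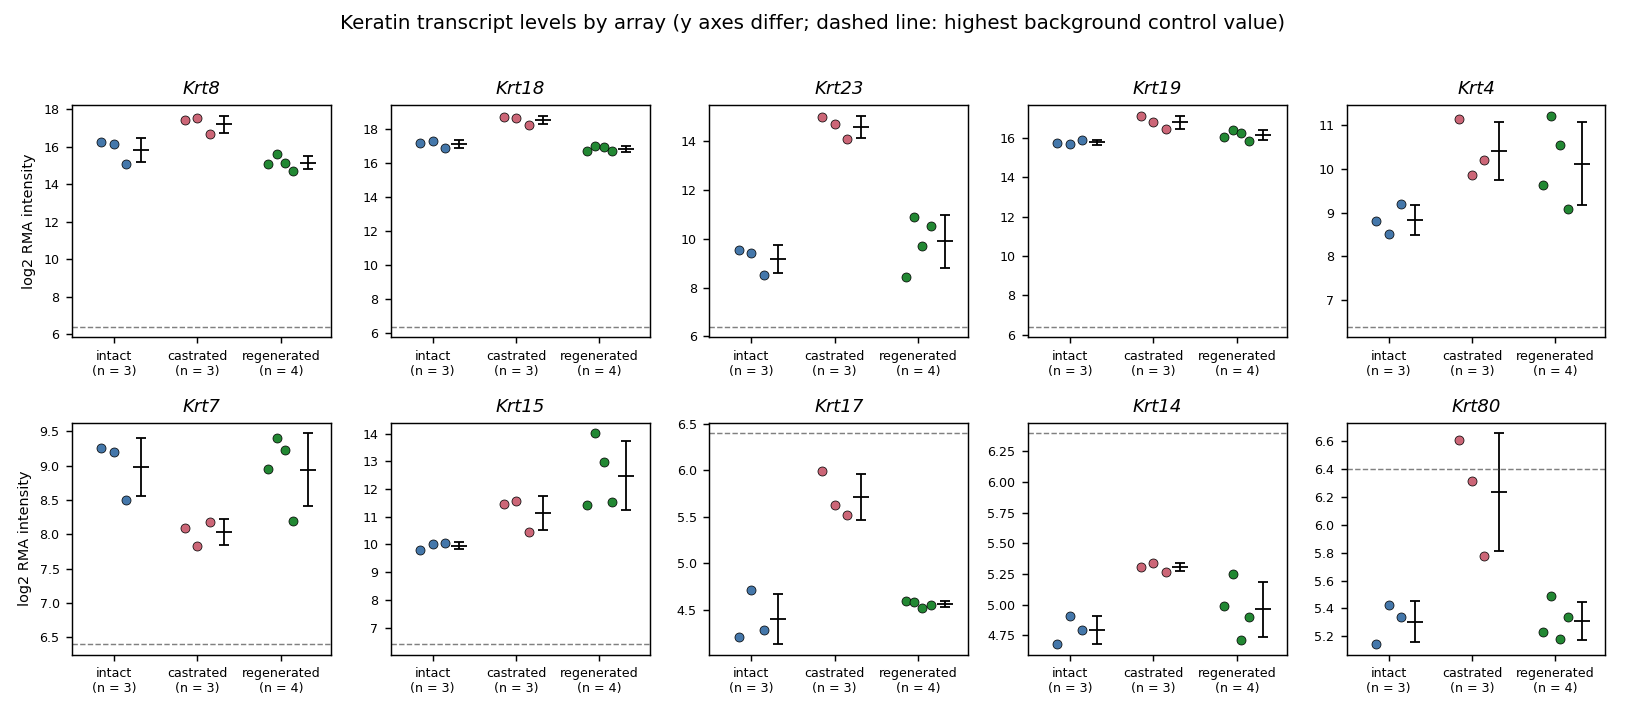
Log2 RMA intensity of 10 keratins in each array (points) with the group mean and SD (bars) in intact (n = 3), castrated (n = 3) and regenerated (n = 4) arrays; y axes differ. The dashed line is the highest background control value, 6.40. For Krt8, Krt18, Krt23, Krt17 and Krt80, and narrowly for Krt19 and Krt14, every castrated array lies above every other array.

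The promoters of Krt8, Krt18 and Krt23, which rose and fell together, are shown beside that of Krt7, whose means went the other way. They are the 250 bases before the annotated start in RefSeq's GRCm38.p6 table, 5′ to 3′ on the gene's strand, and capitals mark any match to the motifs searched. Krt8 lies at chr15:102004343-102004592 (minus strand), Krt18 at chr15:102027966-102028215 (plus), Krt23 at chr11:99493121-99493370 (minus) and Krt7 at chr15:101412153-101412402 (plus). Krt18 was the only type I member on chromosome 15; the other 27 type I members lie on chromosome 11 and all 20 type II members on chromosome 15.
Krt8: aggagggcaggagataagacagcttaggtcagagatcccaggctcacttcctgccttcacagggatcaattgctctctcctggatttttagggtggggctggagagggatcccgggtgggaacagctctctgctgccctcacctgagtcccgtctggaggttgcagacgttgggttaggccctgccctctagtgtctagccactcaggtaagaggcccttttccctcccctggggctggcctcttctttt
Krt18: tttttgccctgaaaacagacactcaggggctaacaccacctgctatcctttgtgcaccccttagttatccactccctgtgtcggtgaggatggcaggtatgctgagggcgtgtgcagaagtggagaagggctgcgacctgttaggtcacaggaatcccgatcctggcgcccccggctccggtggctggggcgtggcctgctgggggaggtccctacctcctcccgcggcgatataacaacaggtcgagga
Krt23: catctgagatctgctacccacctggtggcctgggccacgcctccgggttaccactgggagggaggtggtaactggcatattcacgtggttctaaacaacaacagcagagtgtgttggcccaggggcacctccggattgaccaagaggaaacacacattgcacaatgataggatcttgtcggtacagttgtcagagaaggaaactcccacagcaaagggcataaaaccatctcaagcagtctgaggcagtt
Krt7: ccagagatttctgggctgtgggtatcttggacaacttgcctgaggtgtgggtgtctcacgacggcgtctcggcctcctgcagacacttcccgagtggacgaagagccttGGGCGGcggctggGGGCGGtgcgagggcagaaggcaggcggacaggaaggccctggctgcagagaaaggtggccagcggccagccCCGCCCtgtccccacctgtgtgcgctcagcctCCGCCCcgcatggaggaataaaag

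The motifs, searched on both strands, were the TATA box TATAAA, the GC box GGGCGG, the AP-1 site TGANTCA and the androgen receptor hexamer AGAACA. The Krt7 stretch held 4 matches to the GC box, which do not overlap, and no other match; the Krt8, Krt18 and Krt23 stretches held none of these letters. Among all 32851 promoters of the same length, 32.7% held the GC box, 12.4% the TATA box, 6.75% the AP-1 site and 16.1% the hexamer. Of the 35 keratin members in the table, 17 held the TATA box, 2 the GC box, 1 the AP-1 site and 6 the hexamer.

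Of the proximal luminal keratins, 1 passed a test. Krt19, a small type I keratin of ducts and progenitor cells, rose with castration from 15.75, 15.69 and 15.90 to 17.14, 16.83 and 16.49, a change of 1.04 ± 0.21 log2 (limma adjusted p = 0.0132). That call ended without intact replicate 1 or 2 (adjusted p = 0.0612 and 0.0618, in order of size) and with quantile normalization (0.152). In regenerated arrays Krt19 was 16.07, 16.44, 16.27 and 15.85, under every castrated array but not past the threshold (-0.66 ± 0.19, limma adjusted p = 0.0847); it passed with array weights (0.0439) and over genes above background alone (0.0392).

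Krt4, a type II keratin of stratified mucosa, was 8.80, 8.51 and 9.19 in intact, 11.13, 9.85 and 10.20 in castrated, and 9.62, 11.21, 10.54 and 9.09 in regenerated arrays. Castrated arrays all lay above intact arrays, by 1.56 ± 0.52 log2 on average, which did not pass (limma adjusted p = 0.105) except with array weights, over genes above background alone or in a fit of the 2 groups (0.0288 to 0.0464). Regenerated arrays spread across the range of the castrated arrays and reached down to that of the intact arrays, so that the differences of -0.28 ± 0.49 from castrated and 1.29 ± 0.49 from intact arrays did not pass either (limma adjusted p = 0.827 and 0.401).

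Krt7, a type II keratin of ducts and urothelium, was the expressed member whose mean was lower in castrated arrays: 9.25, 9.19 and 8.49 in intact, 8.09, 7.83 and 8.18 in castrated, and 8.95, 9.40, 9.23 and 8.20 in regenerated arrays. The castrated arrays lay below all others, with regenerated replicate 4 only just above them. Neither difference passed, at -0.95 ± 0.33 and 0.91 ± 0.31 log2 (limma adjusted p = 0.118 and 0.133). Both passed without regenerated replicate 4 (adjusted p = 0.0361 and 0.0209), and with all arrays kept but weighted by their quality (0.013 and 0.0294). Krt13, which accompanies Krt4 in stratified mucosa, stayed under the background limit, with means of 4.74, 5.05 and 5.16.

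Other markers of proximal luminal cells moved in both directions beside these keratins. Of the 5 measured markers of this list, all had a group mean over the background limit. Clu, clusterin, was higher in castrated arrays (11.76 ± 0.33 to 14.84 ± 0.75), while Psca and the claudin gene Cldn10 were lower (9.57 ± 0.59 to 6.76 ± 0.27, and 9.66 ± 0.14 to 7.82 ± 0.50). In regenerated arrays Clu was 13.74 ± 0.66, overlapping the castrated arrays (limma adjusted p = 0.18). It lay above every intact array there without passing (limma adjusted p = 0.217). Psca was 10.67 ± 0.69 and Cldn10 9.55 ± 0.64 in regenerated arrays, both higher than in castrated arrays (limma adjusted p = 0.000459 and 0.0199). Wfdc2 and Ppp1r1b passed in neither comparison (8.80 ± 0.19, 9.59 ± 0.57 and 10.02 ± 0.48, and 6.94 ± 0.70, 7.83 ± 0.60 and 8.03 ± 0.56). The summed level of the list was set mostly by Clu and ran from 12.32 to 12.73 in intact, 14.09 to 15.52 in castrated and 13.23 to 14.57 in regenerated arrays. Of 5 uroplakin genes, markers of urothelium, Upk1b and Upk3a were higher in castrated arrays (10.04 ± 0.35 to 15.59 ± 0.19, and 4.20 ± 0.14 to 9.27 ± 1.73) and lower again in regenerated arrays (13.30 ± 1.24 and 4.13 ± 0.07), Upk1a was high in all groups (means from 17.49 to 17.74), and Upk2 and Upk3b had means under the limit. The summed uroplakin level ran from 17.34 to 17.81 in intact, 17.59 to 18.45 in castrated and 16.85 to 18.50 in regenerated arrays. The part of other cells in these keratins was not tested.

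Of the basal keratins, the defining pair was near background. Krt5 was 4.70, 4.86 and 4.72 in intact, 5.27, 4.82 and 5.41 in castrated, and 4.78, 4.59, 4.64 and 4.88 in regenerated arrays, with overlap between groups and no call; without castrated replicate 2 it passed both as higher in castrated than intact arrays and as lower in regenerated arrays (adjusted p = 0.0339 and 0.0293). Krt14 was 4.68, 4.90 and 4.79 in intact and 5.31, 5.34 and 5.27 in castrated arrays, a rise of 0.52 ± 0.14 log2 (limma adjusted p = 0.046) at levels under the limit. The call ended in 7 of the 10 fits that left out an array, without any intact or castrated array or regenerated replicate 1 (adjusted p from 0.0628 to 0.175), with each array centred on its median (0.119) and with quantile normalization (0.114). In regenerated arrays it was 4.99, 5.25, 4.71 and 4.90 and did not pass against castrated arrays (limma adjusted p = 0.174).

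Krt17, a type I keratin of basal cells and of injured skin, was 4.21, 4.71 and 4.28 in intact, 5.996, 5.629 and 5.517 in castrated, and 4.59, 4.59, 4.52 and 4.56 in regenerated arrays. All castrated arrays lay above all others, yet under the background limit of 6.40, which was set by castrated replicate 3. In castrated replicates 1 and 2 the highest background values were 5.04 and 5.05, under the Krt17 values of 5.996 and 5.629. In castrated replicate 3 Krt17, at 5.517, lay under that array's highest background value. The rise of 1.31 ± 0.16 log2 (limma adjusted p = 0.000875) and the change of -1.15 ± 0.15 in regenerated arrays (limma adjusted p = 0.0016) held in all 18 alternatives that kept this gene. Krt16, which is induced with Krt17 in wounds, was 3.84 ± 0.16, 4.13 ± 0.14 and 3.99 ± 0.20 and passed in no comparison.

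Krt15, a type I keratin of basal and progenitor cells that has no fixed type II partner, was well above background in every array and kept another pattern. It was 9.80, 10.01 and 10.04 in intact, 11.44, 11.56 and 10.43 in castrated, and 11.42, 14.02, 12.98 and 11.53 in regenerated arrays. The intact arrays lay below all others, and the regenerated arrays overlapped the castrated ones at the low end. The regenerated mean was 2.53 ± 0.58 log2 above intact, with an unadjusted p of 0.00121 that did not pass over all genes (limma adjusted p = 0.255); the castrated mean was 1.19 ± 0.62 above intact (limma adjusted p = 0.317).

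Beside the basal keratins, 1 of 8 other basal markers, Itga6, had a group mean over the limit. Itga6 encodes CD49f, which was itself a gate of the sort, and was 8.56 ± 0.49 in intact, 9.63 ± 0.84 in castrated and 8.22 ± 0.56 in regenerated arrays. Trp63, the transcription factor that defines basal cells, was 3.97 ± 0.05, 3.98 ± 0.12 and 4.18 ± 0.34, and Col17a1, Lamb3, Dsc3 and Aqp3 had means from 3.64 to 4.02. Lama3, a laminin chain of the basement membrane, was 4.72 ± 0.08, 5.56 ± 0.12 and 5.37 ± 0.92, and the integrin gene Itgb4 was 5.76 ± 0.43, 6.33 ± 0.32 and 6.31 ± 0.19. In castrated against intact arrays 7 of the 8 basal markers had a change above 0, and 4 did not overlap between the groups, all higher (17.4% of all genes). The summed level of the basal list was 8.74 to 9.28 in intact, 9.31 to 10.65 in castrated and 8.56 to 9.50 in regenerated arrays, and limma called none of its members in any comparison, with 2 members at an unadjusted p under 0.05 in castrated against intact arrays.

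A further 2 keratins passed the test at low levels. Krt80, a type II keratin of differentiating epithelia, was 5.14, 5.43 and 5.34 in intact, 6.61, 6.32 and 5.78 in castrated, and 5.23, 5.49, 5.18 and 5.34 in regenerated arrays. In castrated replicates 1 and 2 Krt80 lay above those arrays' highest background values, 5.04 and 5.05, and in replicate 1 also above the limit of 6.40. In castrated replicate 3 it lay under that array's highest background value. Krt80 rose by 0.93 ± 0.20 log2 (limma adjusted p = 0.0168) and fell by 0.93 ± 0.18 (limma adjusted p = 0.0175). The rise ended without intact replicate 1 or castrated replicate 2 (adjusted p from 0.0599 to 0.0817), and the fall without castrated replicate 1 or 2 or regenerated replicate 3 (0.0521 to 0.0713) and in a fit of the 2 groups alone (0.0532). Krt73, a keratin of the hair follicle's inner root sheath, went from 3.74 ± 0.04 to 4.01 ± 0.06 and back to 3.71 ± 0.06, within the range of background control rows. Its changes of 0.27 ± 0.07 and -0.30 ± 0.06 passed (limma adjusted p = 0.0368 and 0.0224), and ended in 7 and 4 of the 10 fits without an array: the rise without any intact array, castrated replicate 1 or 2, or regenerated replicate 1 or 3 (adjusted p from 0.0523 to 0.143), and the fall without castrated replicate 1 or 2 or regenerated replicate 2 or 3 (0.0532 to 0.0948). Both also ended with the replicate block (0.0652 and 0.0502), with each array centred on its median (0.175 and 0.0527) and in a fit of the 2 groups alone (0.0607 and 0.0662), and the rise with quantile normalization (0.0619).

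The remaining classes lay at background level. The 12 hard hair and nail keratins had group means from 3.29 upward and no call in any comparison, with castration changes between -0.17 and 0.19 log2 and a median of 0.02. Krt40 and Krt33b had the highest means over all arrays in this class, at 4.39, 4.37 and 4.33 for Krt40 in intact, castrated and regenerated arrays and at 4.21, 4.27 and 4.26 for Krt33b. Of the inner root sheath class, Krt72 and Krt74 ranged between 3.80 and 4.13 over all arrays. Among keratins of stratified epithelium, Krt79, of sebaceous and hair follicle ducts, was 5.31, 5.29 and 5.30 in the 3 groups. The 3 unclassed members, Krt42, Krt88 and Krt222, had no call. The 26 keratins not named singly ranged from 3.15 to 5.15 over all arrays.

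Partner genes were read from a list of 56 measured genes, not all of whose products hold or bind keratin filaments. It held 12 genes of desmosomes, 7 of plakins and hemidesmosome linkers and 16 listed under keratin binding and bundling. The 16 include transcription factor genes such as Trp63. A further 7 genes were of the cornified envelope and 14 of other intermediate filaments. In castrated arrays 12 of the 56 were higher and none lower (21.4%, against 8.01% of all genes). In regenerated against castrated arrays 9 were lower and 1, Krtcap2, was higher (17.9%, against 4.98%). None passed between regenerated and intact arrays, where 7 had an unadjusted p under 0.05 in limma and every other limma setting also called none. Most of the calls were in desmosomes, the junctions to which keratin filaments attach: 7 of 12 members rose with castration (median 0.71 log2, against 0.04 for all genes) and 6 of 12 fell in regenerated arrays (median -0.54, against -0.01). Without regenerated replicate 4 the latter count was 7, with Dsg2 added.

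Dsc1, a desmosomal cadherin best known from epidermis, was 4.17, 4.34 and 4.05 in intact, 7.98, 8.01 and 9.20 in castrated, and 4.29, 4.28, 4.20 and 4.82 in regenerated arrays. The castrated arrays stood clear of all others, with a rise of 4.21 ± 0.30 log2 (limma adjusted p = 4.01e-05) and a change of -4.00 ± 0.28 in regenerated arrays (limma adjusted p = 3.81e-05). Dsc2, the desmocollin of simple epithelia, was 4.65, 4.70 and 5.25 in intact, 7.48, 7.32 and 9.01 in castrated, and 5.35, 5.80, 5.06 and 6.10 in regenerated arrays, a rise of 3.07 ± 0.42 and then a change of -2.36 ± 0.39 (limma adjusted p = 0.00189 and 0.00727). Intact means of both lay under the background limit, so these sizes depend on the floor.

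Desmoplakin, Dsp, which ties keratin filaments to the desmosome, rose from 11.08 ± 0.40 to 12.10 ± 0.06 (limma adjusted p = 0.0359) and was 10.73 ± 0.24 in regenerated arrays, a change of -1.37 ± 0.24 (limma adjusted p = 0.00887). The rise ended without intact replicate 2 or 3, any castrated array or regenerated replicate 3 (adjusted p from 0.0551 to 0.108). That call held in 11 of the 19 alternatives, and some of the losses were in fits that kept all arrays. The plakophilins Pkp4 and Pkp2 rose by 1.58 ± 0.21 and 1.35 ± 0.22 log2, and the cadherin Dsg2 by 0.83 ± 0.14. From castrated to regenerated arrays Pkp4 and Pkp2 changed by -1.24 and -1.02 (limma adjusted p = 0.00601 and 0.0202). The Pkp4 fall held in all 19 alternatives. That of Pkp2 held in 14 of 19 and ended when any castrated array was left out (adjusted p from 0.058 to 0.0704). Jup, plakoglobin, which did not pass, was 9.85 ± 0.17, 9.64 ± 0.52 and 9.41 ± 0.40, and the basal or epidermal members Dsc3, Dsg3 and Pkp1 had means from 3.64 to 3.92, near background. The epidermal desmoglein Dsg1a, given above among the skin markers, lay near background too but is 1 of the 7 calls with castration and 1 of the 6 after testosterone; its rise ended without intact replicate 2 (adjusted p = 0.0517).

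Outside desmosomes, Sfn, the 14-3-3 sigma protein that binds keratins, rose from 5.77 ± 0.38 to 8.28 ± 0.40 and was 6.47 ± 0.24 in regenerated arrays, changes of 2.51 ± 0.26 and -1.81 ± 0.24 log2 (limma adjusted p = 0.000402 and 0.00209). Sprr1a, a cornified envelope precursor, rose from 4.52 ± 0.11 to 8.33 ± 0.51 and was 5.50 ± 0.66 in regenerated arrays (3.81 ± 0.36 and -2.83 ± 0.34, limma adjusted p = 0.000271 and 0.00114). The other 6 measured cornified envelope genes did not pass in either comparison. None of 7 plakin and hemidesmosome genes passed limma's test between castrated and intact arrays, where 2 had an unadjusted p under 0.05, and Plec, plectin, was 5.59, 5.77 and 5.64. The small heat shock gene Hspb1 and Krtcap3 rose with castration, by 1.63 ± 0.36 and 1.71 ± 0.28 (limma adjusted p = 0.0191 and 0.00473), and did not pass between regenerated and castrated arrays (0.299 and 0.243). The Hspb1 call ended without intact replicate 1 or 2 or castrated replicate 3 (adjusted p from 0.0658 to 0.0928).

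**Figure D4:**
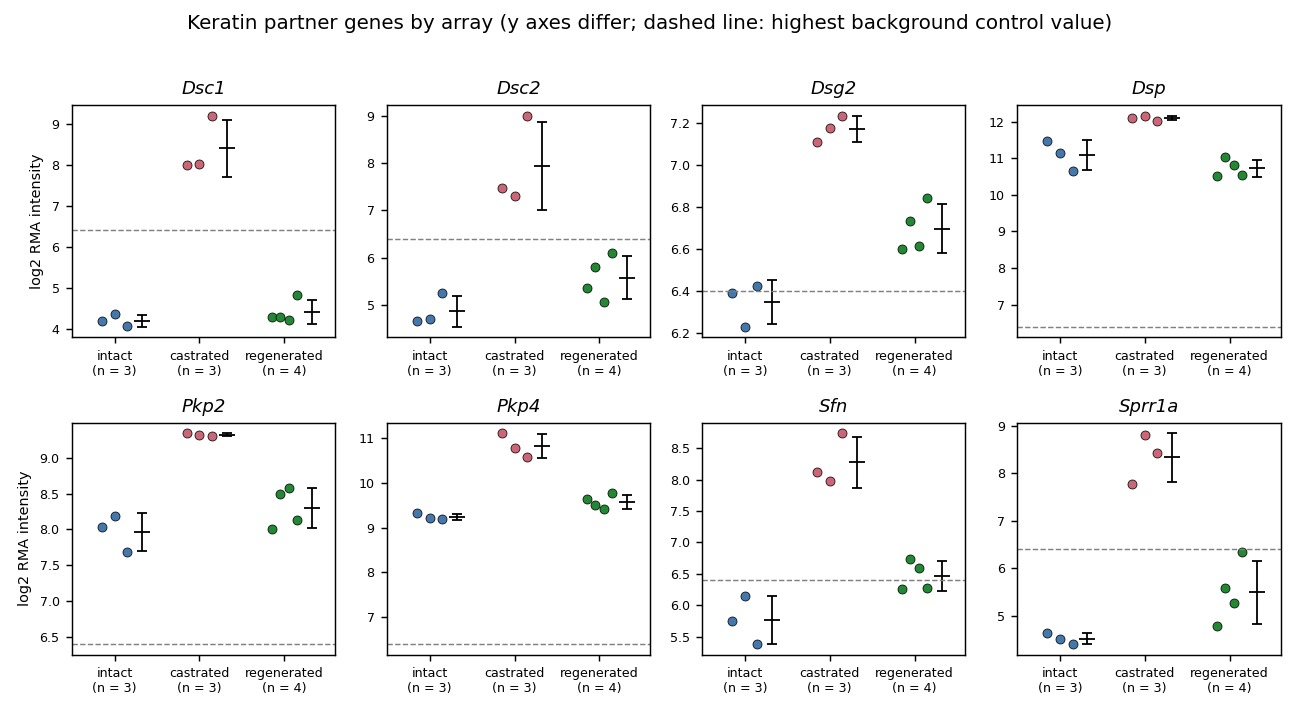
Log2 RMA intensity of 8 of the listed keratin partner genes in each array (points) with the group mean and SD (bars), intact (n = 3), castrated (n = 3) and regenerated (n = 4). The y axes differ, and the dashed line is the highest background control value, 6.40. In all 8 genes every castrated array lies above every intact and every regenerated array.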

How the data were processed

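The deposited table holds log2 values, which the authors computed by RMA (Affymetrix Expression Console is the tool named in the submitters' processing notes); no version or genome build was found in the labels. The method corrects background, brings arrays to a common distribution and summarises probes, so a change shared by all transcripts would be reduced. No column was left unused. Precision is limited by the number of arrays.

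Gene names of rows came from the platform annotation, and 827 older symbols were replaced with those of a RefSeq table (GRCm38.p6). Of 65956 non-control rows, 30604 had 1 symbol, 2146 several and 33206 none, and the highest-mean row was kept per gene. Each keratin had 1 row. A further 2 rows listing several keratin symbols were left out. Whether a row's probes also catch transcripts of a close relative was not tested.

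The test was limma's moderated linear model (version 3.58.1, R 4.3.3; lmFit and eBayes with trend), fitted to the 10 arrays in 3 groups, two-sided, with Benjamini-Hochberg adjustment over 30142 genes and a threshold of 0.05, and the script was tested on simulated data. The summed level of a marker list is the log2 of its summed unlogged values. Members, classes and lists were chosen with earlier results of these data known. Named are all keratins called, all simple, proximal luminal, basal and wound keratins, and the 2 highest of each other class. Up to 6 called partner genes with the largest change per comparison are named too. The marker genes, Jup, Dsg1a, Dsc3, Dsg3, Pkp1, Pkp2, Plec and Dsg2 were named after their values were seen. So were the genes of the last paragraph of the closing section. Same-numbered arrays did not deviate together, so replicate numbers were not used. Alternatives were other variance priors, array weights, a replicate block, scaling, a filter, 2-group fits, the mean of all rows and leaving out each array.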

Additional observations from a re-analysis of the deposited data

Results flagged for a closer look

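A row annotated to both Krt6a and Krt6b, which cannot be assigned to either wound keratin and entered no comparison, had a castrated mean of 6.75 (6.95, 5.73 and 7.57 in the 3 arrays), above the intact arrays at 4.62 to 5.14; the regenerated arrays lay at 4.60 to 5.10. The difference was not tested.

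Of 22 keratins examined, 1 had a regenerated array far from the others of its group: Krt222 was 3.95 in regenerated replicate 4 and 3.80 in each of the other 3, all within the range of background rows. Chance alone gives about 1 such group in 20.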

How the results depend on the processing

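The count of 8 keratins called in castrated against intact arrays, all higher, was 5 over genes with a group mean above background. There, 7 keratins were tested and 2634 of 10004 genes were called. It was 5 with each array centred on its median and 4 with quantile normalization (2270 and 2525 of all genes). Without single arrays it was 3 to 9 either way (1019 to 3271 of all genes). The 9, without regenerated replicate 4, include Krt7 as lower. Krt18, Krt23 and Krt17 passed in every alternative run that kept them; the other 5 each lost the call in at least 1. Without single arrays, 4 to 7 keratins were called either way between regenerated and castrated arrays (816 to 2127 of all genes). None was called between regenerated and intact arrays. Keratins at background numbered 39 to 41, with 39 without castrated replicate 3 (34 by the 95th percentile). With the replicate block, in which regenerated replicate 4 stands alone, 7, 5 and 0 keratins were called (2715, 1637 and 4 of all genes). Correlations of deviations between same-numbered arrays ran from -0.20 to 0.34. Partner genes called numbered 8 to 12, 7 to 11 and 0 without single arrays, alternatives added after seeing the data. Of 1209 values of named keratins under alternatives, 45 lost a call, 11 gained one, among them Krt4 in castrated against intact arrays with array weights (adjusted p = 0.0288), and none that passed changed sign; 56 that passed in neither setting did. Krt7 passed without regenerated replicate 4 and with array weights. Array weights called 12 keratins in castrated against intact arrays (11 higher, and Krt7 lower), where 4258 of 30142 genes were called. In regenerated against castrated arrays they called 8 keratins (7 lower, and Krt7 higher), where 2236 genes were called.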

Other observations

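Other intermediate filament genes were measured beside the keratins and were counted among the 56 partner genes above. Of 14, Lmnb1, a nuclear lamin, was higher in castrated arrays (5.35 ± 0.03 to 6.16 ± 0.28, limma adjusted p = 0.0167) and lower again in regenerated arrays (5.35 ± 0.22, limma adjusted p = 0.0163), and its calls ended without single arrays (adjusted p from 0.0535 to 0.0692, and from 0.052 to 0.073). Vim, vimentin, a filament of mesenchymal cells, was 4.09 ± 0.14, 4.71 ± 0.42 and 4.38 ± 0.42 and did not pass. Krtcap2, a subunit of the oligosaccharyltransferase despite its name, rose in regenerated over castrated arrays by 0.90 ± 0.21 log2 (limma adjusted p = 0.0401), a call that ended in 8 of the 10 fits that left out an array (adjusted p from 0.0565 to 0.147).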
